A study of Rattus norvegicus with 6 samples.

Results

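The respiratory chain and the ATP synthase were followed here as 54 genes in rat liver, out of 4736 genes that the arrays measured under a gene symbol of their own. The genes were chosen by name. A gene belonged if its symbol started with Nduf, Sdh, Uqcr, Cox4, Cox5, Cox6, Cox7, Cox8 or Atp5 or was Cyc1 or Cycs, and the muscle and brown fat forms Cox6a2, Cox7a1 and Cox8b were left out. They were measured by 97 probe sets, from which the brightest of each gene was taken. By complex these were 27 genes of complex I, 2 of complex II, 4 of complex III, 11 of complex IV and 10 of complex V. A further 7 probe sets that carry several symbols, at least 1 of them fitting the rule, were not used, and Cycs itself had no probe set of its own.

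Male Sprague Dawley rats received liquid diets by total enteral nutrition, that is through a feeding tube, over 3 weeks. Corn oil made up 5% of the Control diet, which supplied 187 kcal per kg3/4 of body mass and day, and 70% of the NASH diet, which supplied 220 kcal. NASH stands for nonalcoholic steatohepatitis. Fat share and energy supply differed together and cannot be told apart. Liver RNA of 3 Control and 3 NASH samples was hybridized to 1 Affymetrix RG_U34A array each, and the instrument records give the tissue as liver. No source ties an array to an animal, so p-values reflect the spread between these arrays, which may be technical.

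The chain sits in the inner mitochondrial membrane. Complex I takes electrons from NADH, and complex II takes them from succinate as part of the citric acid cycle. Complex III passes them to cytochrome c, complex IV hands them to oxygen, and the proton gradient built on the way drives the ATP synthase, called complex V. In liver the chain takes up the electrons that fatty acid oxidation releases. Most subunits are encoded in the nucleus. Complex II is built from nuclear products alone, and the other complexes also hold subunits made from mitochondrial DNA.

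Values are log2(signal + 2.28) of quantile-normalized MAS5 signals, and differences are NASH minus Control on that scale. Deposited trimmed mean signals lay between 73.6 and 117. Hepatocyte markers were present on every array: the summed deposited signal of 11 of 12 listed markers lay between 29506 and 48109, and albumin (Alb) between 12.46 and 12.57 on the log2 scale. Of these 11 markers, 5 had a higher and 6 a lower mean in NASH, 0 were called, and F10, Ambp and Cps1 lay wholly lower. F10 (8.92), Otc (9.13), Ambp (11.62) and Cps1 (11.27) were lowest on NASH 2. Fgb (11.92) was highest there and Serpina1 (12.71) jointly highest with NASH 3, and the remaining markers were neither highest nor lowest on NASH 2. NASH 2 stood apart by transcripts of other tissues. The summed deposited signal of 10 of 12 listed brown fat markers was 4371 there against 478 to 600 on the other arrays, and that of 11 of 13 skeletal muscle markers was 2654 against 223 to 332. Acta1 gave 1322 of the muscle sum on NASH 2. Of the muscle markers, Myh4 was lowest on NASH 2 (3.31 against 3.82 to 4.73). Myh1 (6.53) lay within the range of the other arrays (6.06 to 6.85), and the remaining muscle markers were highest on NASH 2. None of these sums was at 0, which does not show that each marker was detected on every array. Fabp4 read 10.16 on NASH 2 against 1.75 to 2.46 elsewhere. Those low values are near the floor (deposited signals of 0.80 to 4.47), and Fabp4 was not tested. For 6 of 7 leukocyte markers the sum was 743 on NASH 2 and 273 to 551 on the others. Of these, Cd74 was highest on Control 3 (8.28, with NASH 2 at 8.27) and the rest on NASH 2. Control 3 stood apart by its control probes, with a 3′ to 5′ signal ratio of 5.07 for actin against 2.15 to 2.93 elsewhere and of 2.04 for Gapdh against 1.08 to 1.29. In bulk tissue, fewer cells of a type and less RNA per cell cannot be told apart.

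No gene of the respiratory chain or the ATP synthase passed the test between the diets. Of the 53 genes above the intensity filter, 26 had a higher mean in NASH and 27 a lower one, and 0 were called by limma at an adjusted p under 0.05, against 0.133% of all 5244 probe sets tested (0.0953% called higher in NASH and 0.0381% lower). The median difference was −0.01, beside −0.02 over all probe sets tested, and the lowest adjusted p was 0.503. At an unadjusted p under 0.05 there were 3 members (Ndufv3, Cyc1 and Atp5if1), where 7.88% of all probe sets lay under it. The 3 NASH values lay wholly apart from the 3 Control values for 7 members, 5 of them lower in NASH and 2 higher. That is 13.2% of the members beside 14.3% of all probe sets tested.

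The differences were small and mostly bounded. The 95% interval of the difference lay within 2-fold in either direction for 45 of the 53 members, or 84.9%, against 63.6% of all probe sets. The intervals of Ndufv3, Ndufs1, Sdhaf2, Cyc1, Uqcrc2, Atp5if1, Atp5pd and Atp5pf reached past 2-fold on a side. The median standard error of the members' differences was 0.21, against 0.26 for all probe sets. Their median spread from the lowest to the highest of the 6 arrays was 0.65, against 0.89 for all probe sets. The members, taken as the brightest probe set of each gene, had a median mean log2 of 8.81, against 5.78 for all probe sets tested. They were not compared with probe sets of like brightness, and the part of brightness in these narrower values was not tested.

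**Figure D1:**
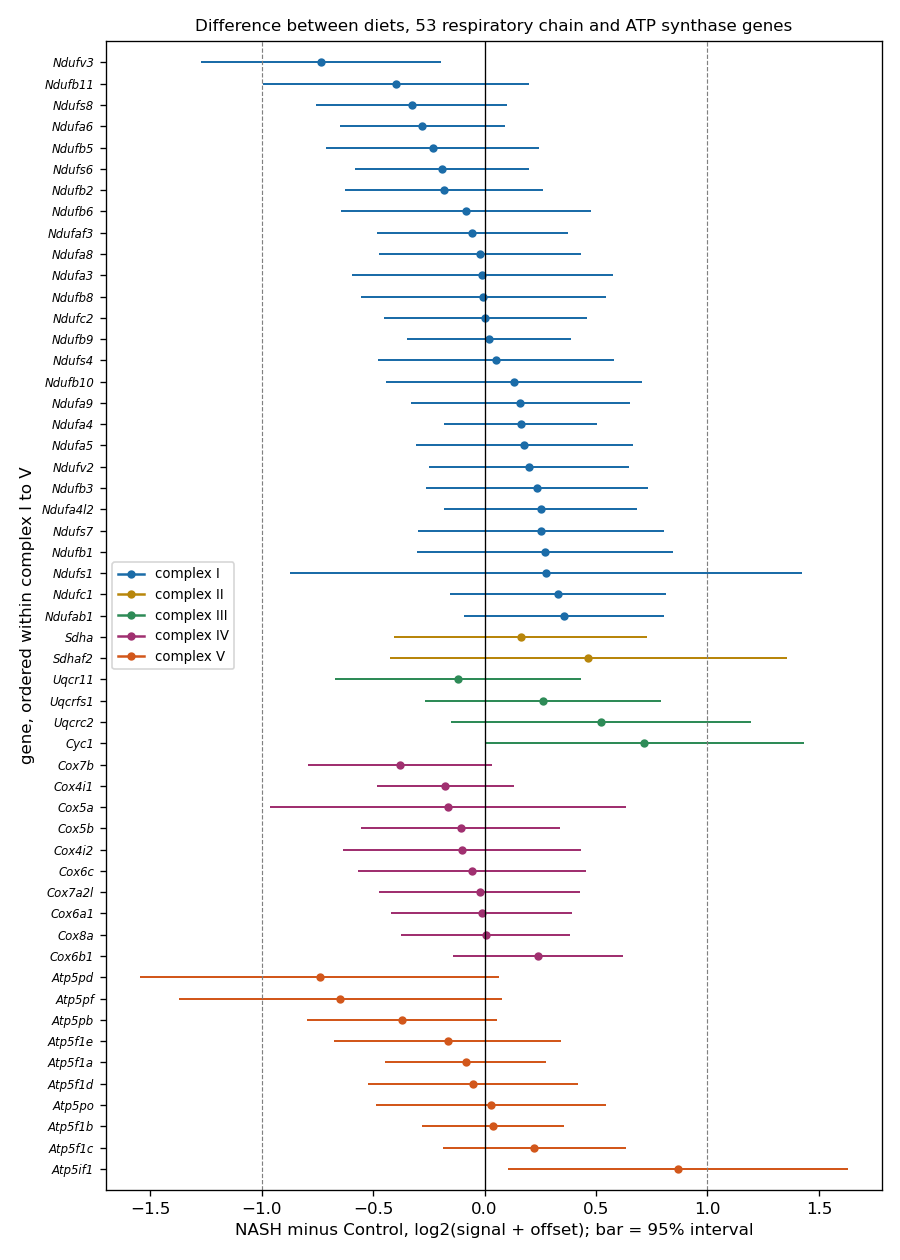
Each point is the difference NASH minus Control of a gene on the log2(signal + offset) scale, with its 95% interval from limma as a bar (3 arrays per group), ordered within complexes I to V; dashed lines mark 2-fold. Most intervals cross 0 and stay between the dashed lines, and the widest on either side belong to members of complexes I, II, III and V.

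The balance of signs depended on the scaling and on the arrays used. With the deposited signals and no scaling between arrays, 18 members had a higher mean in NASH and 35 a lower one, while the median of all probe sets lay at −0.17 and 31.2% of them were higher, against 47.1% with quantile normalization. The members' median was −0.16 on that scale, 0.01 above the median of all probe sets, and again 0 members were called. With trimmed mean scaling 27 were higher and 26 lower. Without both Control 2 and NASH 2, 18 were higher and 35 lower, and without NASH 3, 33 were higher and 20 lower.

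Promoters of the members were searched for 4 short motifs known from nuclear respiratory genes. A window of 250 bases before to 50 after the gene start was found in the RefSeq table (GRCr8) for 45 of the 54 members. On either strand, the ETS core CCGGAAG, which the respiratory factor GABP (also called NRF2) binds, occurred in 22.2% of member windows, 8.75% of all 33469 windows and 11.9% of the 4192 windows of genes on the array. The YY1 core AAGATGG occurred in 28.9%, 7.01% and 7.20%, and the site AAGGTCA of estrogen-related receptors in 11.1%, 4.61% and 3.15%. The core GCGCATGC of NRF1 was in 2 member windows (4.44%, against 2.47% and 3.10%), those of Atp5po and Ndufa6. A match is a run of letters and not a measured binding site, and the absence of one says only that these letters are not in the window. None of the 4 motifs contains another. The Atp5po match of NRF1 reads on both strands, which overlap.

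The 250 bases before the gene start are shown for 5 members, 5′ to 3′ on the gene's strand, with motif matches in capitals. Ndufa6 and Uqcrc2 come from complexes I and III and held 3 matches each over the whole window. Atp5pf, Atp5pb and Atp5po encode subunits of the same stalk of the ATP synthase. With the probe sets used, the first 2 varied together across arrays and the third did not, as their values show. Atp5pb held 0 matches, and Atp5pf 2.
Ndufa6 (GRCr8, chr7:115750318-115750567, minus strand): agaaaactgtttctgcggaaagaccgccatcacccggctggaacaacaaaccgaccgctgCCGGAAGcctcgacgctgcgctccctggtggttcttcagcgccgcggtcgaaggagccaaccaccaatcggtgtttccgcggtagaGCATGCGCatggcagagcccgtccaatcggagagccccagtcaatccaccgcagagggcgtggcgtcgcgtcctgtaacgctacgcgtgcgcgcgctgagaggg
Uqcrc2 (GRCr8, chr1:184598990-184599239, plus strand): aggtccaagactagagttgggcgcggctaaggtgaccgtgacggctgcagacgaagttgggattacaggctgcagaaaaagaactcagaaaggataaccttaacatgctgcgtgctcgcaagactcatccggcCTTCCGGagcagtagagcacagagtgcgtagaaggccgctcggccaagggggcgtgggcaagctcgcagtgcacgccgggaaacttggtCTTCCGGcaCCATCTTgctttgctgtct
Atp5pf (GRCr8, chr11:37375102-37375351, minus strand): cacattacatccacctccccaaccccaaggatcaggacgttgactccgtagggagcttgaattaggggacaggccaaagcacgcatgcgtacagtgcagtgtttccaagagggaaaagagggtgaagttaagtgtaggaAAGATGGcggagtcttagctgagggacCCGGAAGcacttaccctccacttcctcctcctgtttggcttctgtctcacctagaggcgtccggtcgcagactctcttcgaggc
Atp5pb (GRCr8, chr2:196123738-196123987, minus strand): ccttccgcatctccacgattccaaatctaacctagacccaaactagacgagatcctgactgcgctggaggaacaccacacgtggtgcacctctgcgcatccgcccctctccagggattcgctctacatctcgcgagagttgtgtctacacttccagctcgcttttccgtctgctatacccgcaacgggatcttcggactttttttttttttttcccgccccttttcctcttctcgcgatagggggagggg
Atp5po (GRCr8, chr11:44657484-44657733, minus strand): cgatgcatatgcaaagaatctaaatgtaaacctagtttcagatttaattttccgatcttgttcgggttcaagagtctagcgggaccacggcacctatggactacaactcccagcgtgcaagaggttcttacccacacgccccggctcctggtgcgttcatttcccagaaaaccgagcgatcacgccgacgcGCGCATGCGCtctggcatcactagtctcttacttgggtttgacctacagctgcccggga

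Complex I, the NADH dehydrogenase, takes in the largest number of members. Of 27 members, 15 had a higher and 12 a lower mean in NASH, with a median of 0.02 and differences from −0.73 to 0.36. Groups did not overlap for 5 of them, lower in NASH for Ndufv3, Ndufs8 and Ndufa6 and higher for Ndufab1 and Ndufa4l2. Over all probe sets tested, 7.76% lay wholly lower and 6.56% wholly higher.

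Ndufv3, an accessory subunit of the NADH-binding part of the complex, had the smallest p of all members. Its values were 9.17, 9.33 and 9.89 in Control and 8.74, 8.93 and 8.53 in NASH. Every NASH array lay below every Control array, and Control 3 was the highest. The difference was −0.73 ± 0.23 (standard error, n = 3 per group), 1.66-fold lower in NASH, with a limma adjusted p of 0.503. Without Control 3 it was −0.52. Its second probe set had the opposite sign (0.35 ± 0.48).

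Ndufs8, which carries iron-sulfur clusters near the quinone site, had values of 8.67, 8.59 and 8.91 in Control and 8.45, 8.50 and 8.24 in NASH. The groups did not overlap, and the difference was −0.33 ± 0.18 (limma adjusted p = 0.651). The other tested Ndufs8 probe sets gave −0.05 ± 0.22 and −0.32 ± 0.54, both with overlapping groups. Ndufa6, an accessory subunit whose promoter is shown above, had values of 9.59, 9.46 and 9.35 in Control and 9.18, 9.10 and 9.28 in NASH. The difference was −0.28 ± 0.16 (adjusted p = 0.655). A second Ndufa6 probe set also lay wholly lower in NASH, with a difference of −0.45 ± 0.24.

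Ndufab1, the mitochondrial acyl carrier protein, serves both complex I and the making of fatty acids inside mitochondria. Its values were 9.04, 8.73 and 8.90 in Control and 9.06, 9.52 and 9.17 in NASH. NASH 2 was the highest array, and the lowest NASH array and the highest Control array were nearly level. The difference was 0.36 ± 0.19 (limma adjusted p = 0.642), and a second tested probe set gave 0.40 ± 0.21. Without NASH 2 it was 0.22.

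Ndufa4l2, a paralog of Ndufa4, differed by 0.25 ± 0.19 with its brightest probe set, while its other 2 tested probe sets gave 0.07 and −0.17. Its brightest probe set is of a kind (ending _f_at) that can bind similar transcripts. Ndufa4 itself, now counted as a subunit of complex IV although named for complex I, differed by 0.16 ± 0.15.

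Other subunits of complex I had smaller differences relative to their errors. Ndufv2, which carries an iron-sulfur cluster, differed by 0.20 ± 0.19 and Ndufs7, near the quinone site, by 0.25 ± 0.24. Ndufs1, the largest subunit, differed by 0.28 ± 0.49, with Control 3 at 3.24 against 4.36 to 5.14 on the other 5 arrays. Without that array the difference was −0.32. Ndufs4 differed by 0.05 ± 0.23 and Ndufb9 by 0.02 ± 0.16. The assembly factor Ndufaf3, which is no subunit, differed by −0.06 ± 0.18.

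For Ndufb5, Ndufb6, Ndufb8 and Ndufaf3, membrane arm subunits apart from the last, tested probe sets of the same gene took opposite signs. The used Ndufb5 probe set gave −0.23 ± 0.21 and the other 0.46 ± 0.31. For Ndufb8 the 3 tested probe sets gave −0.01, 0.28 and −0.47, and for Ndufb6 the 2 gave −0.08 and 0.20. Ndufb11 differed by −0.40 ± 0.26, with Control 3 highest at 9.84, and Ndufc1 by 0.33 ± 0.21. The remaining 10 members of complex I (Ndufa3, Ndufa5, Ndufa8, Ndufa9, Ndufb1, Ndufb2, Ndufb3, Ndufb10, Ndufc2 and Ndufs6) differed by −0.19 to 0.27, each with overlapping groups and with adjusted p-values of 0.786 or more.

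**Figure D2:**
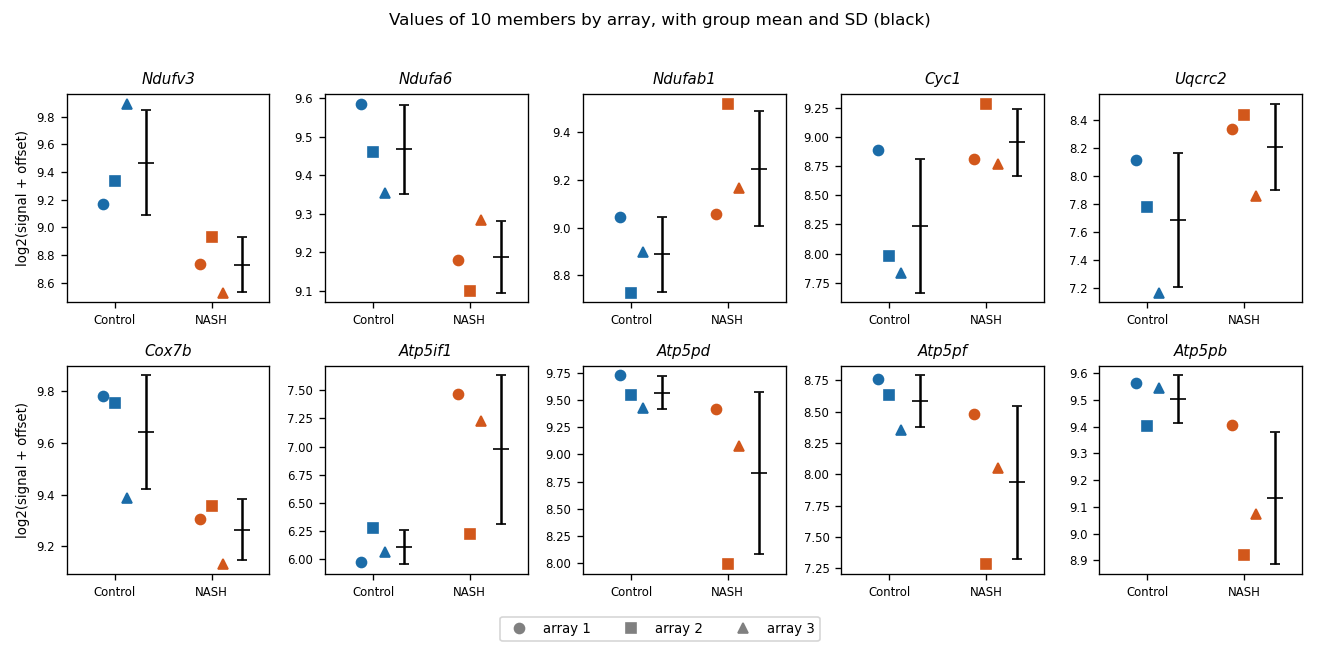
Each panel plots a gene's log2(signal + offset) on the 6 arrays (circle, square and triangle for arrays 1, 2 and 3 of a group; Control blue, NASH orange), with the group mean and SD in black; every panel has its own vertical scale. Ndufv3, Ndufa6 and Cox7b have no overlap between groups (nor, narrowly, do Ndufab1 and Atp5pd), NASH 2 is the lowest array for Atp5pd, Atp5pf and Atp5pb, and Atp5if1 is high on NASH 1 and NASH 3 alone.

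Complex II, succinate dehydrogenase, was measured through its catalytic flavoprotein Sdha and through Sdhaf2, the factor that inserts the flavin. Sdha had values of 8.85, 8.82 and 8.21 in Control and 8.85, 9.03 and 8.49 in NASH, and the difference was 0.16 ± 0.24 (limma adjusted p = 0.891). Sdhaf2 had values of 7.38, 7.53 and 6.03 in Control and 7.38, 7.43 and 7.54 in NASH, a difference of 0.47 ± 0.38 (adjusted p = 0.770). Both had their lowest value on Control 3. Without it the differences were −0.05 for Sdha and −0.01 for Sdhaf2.

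Complex III, the cytochrome bc1 complex, had a median difference of 0.39 over 4 genes, 3 of them higher in NASH. Cyc1, the cytochrome c1 subunit that passes electrons to cytochrome c, had values of 8.89, 7.98 and 7.84 in Control and 8.81, 9.28 and 8.77 in NASH. Control 2 and Control 3 were low, and Control 1 lay inside the NASH range. The difference was 0.72 ± 0.31, 1.64-fold higher in NASH, with a limma adjusted p of 0.618. Uqcrc2, a core protein, had values of 8.11, 7.77 and 7.16 in Control and 8.33, 8.43 and 7.85 in NASH. The groups overlapped, Control 3 was the lowest array, and the difference was 0.52 ± 0.29 (adjusted p = 0.651).

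Uqcrfs1, the Rieske iron-sulfur protein, differed by 0.26 ± 0.23, and its other probe sets by 0.45 and 0.15. The small subunit Uqcr11 differed by −0.12 ± 0.24. Without Control 3, the median of complex III was 0.16, with Cyc1 at 0.52, Uqcrc2 at 0.26 and Uqcrfs1 at 0.05. Without NASH 2 the median was 0.29. On Control 3, where the 3′ to 5′ ratio of actin was highest, Cyc1, Uqcrc2, Uqcrfs1, Sdha, Sdhaf2 and Ndufs1 all had their lowest value, while Ndufv3 and Ndufb11 lay at least 0.5 above every other array. Over all members Control 3 was the lowest array for 13 and the highest for 17 of 53 (24.5% and 32.1%), beside 21.5% and 25.2% of all probe sets tested. The part of the 3′ to 5′ ratio in these differences was not tested.

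**Figure D3:**
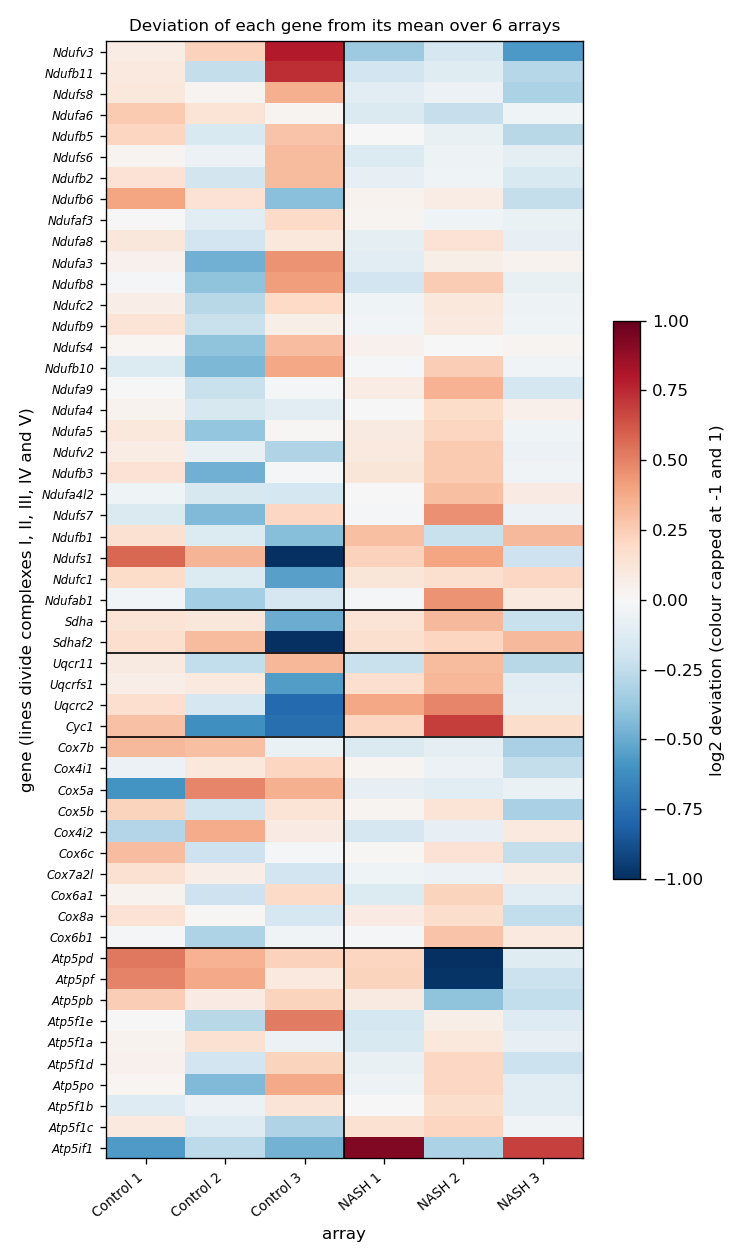
Colour shows how far each gene (rows, complexes I to V divided by lines) lay from its own mean over the 6 arrays (columns, Control left and NASH right) in log2 units, capped at −1 and 1. In Control 3, Ndufv3 and Ndufb11 lie at least 0.5 above the other 5 arrays and Ndufs1, Sdhaf2 and Uqcrc2 at least 0.5 below them, as do Atp5pd and Atp5pf in NASH 2.

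Complex IV, cytochrome c oxidase, had small differences. All 10 tested members had intervals within 2-fold, and the median difference was −0.08, with 8 of 10 members lower in NASH. With no scaling 9 of 10 were lower, where 31.2% of all probe sets were higher. When all probe sets of a gene were averaged, and without Control 1, Control 2 or NASH 3, 5 of 10 were lower. Cox7b had values of 9.78, 9.76 and 9.39 in Control and 9.31, 9.35 and 9.13 in NASH. It was the only complex IV gene whose groups did not overlap, with a difference of −0.38 ± 0.18 (limma adjusted p = 0.618). Cox6b1, which faces the intermembrane space, differed by 0.24 ± 0.16 and by 0.32 with its second probe set.

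Isoforms of complex IV subunits were measured for subunit 4 in both forms, and for subunits 6a and 8 the liver forms are members. No difference between isoforms was tested. Cox4i1, the general form of subunit 4, had values of 11.11, 11.27 and 11.38 in Control and 11.20, 11.11 and 10.93 in NASH, and differed by −0.18 ± 0.13 (limma adjusted p = 0.738). Its other probe sets gave 0.00 and −0.15. Cox4i2, the form typical of lung, differed by −0.10 ± 0.23, with values from 6.42 to 7.09 in Control and 6.55 to 6.82 in NASH. Cox6a1, the liver form of subunit 6a, differed by −0.01 ± 0.17 and Cox8a, the liver form of subunit 8, by 0.00 ± 0.16. Cox7a2l, which helps complexes III and IV join into supercomplexes, differed by −0.02 ± 0.19.

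Cox5b differed by −0.11 ± 0.19 and Cox6c by −0.06 ± 0.22, each with a second probe set of the opposite sign (0.04 and 0.28). Cox5a, close to the intensity filter, differed by −0.16 ± 0.34. The pseudogene Cox6c-ps1, which the name rule includes, lay below the intensity filter at 3.11 to 4.05 and was not tested.

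The left-out muscle and brown fat forms marked NASH 2 instead. Cox8b, the heart and brown fat form of subunit 8, read 8.56 on NASH 2 and 2.83 to 5.06 on the other arrays, and the muscle form Cox6a2 read 7.36 against 6.16 to 6.41. With the probe sets used, their liver counterparts Cox8a and Cox6a1 were highest on NASH 2 too, at 10.69 beside 10.66 on Control 1 and at 10.29 beside 10.26 on Control 3. Their other probe sets were mixed. For Cox6a1 one was highest on Control 3 (10.24, with NASH 2 at 10.03) and one on NASH 2 (5.67). For Cox8a the highest arrays were Control 1 (10.15, NASH 2 10.06), Control 2 (9.08, NASH 2 9.01) and NASH 2 (9.55). Over all members NASH 2 was the highest array for 18 of 53 and the lowest for 4 (34.0% and 7.55%). Over all probe sets tested these shares were 16.1% and 20.3%. The part of the brown fat and muscle transcripts in the members' values was not tested.

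Complex V, the ATP synthase, had members with wide differences on both sides of 0. Of its 10 genes 4 had a higher and 6 a lower mean in NASH, with a median of −0.07. Subunits of the catalytic head had small differences. Atp5f1b, the catalytic beta subunit, had values of 10.86, 10.94 and 11.12 in Control and 10.99, 11.16 and 10.87 in NASH, a difference of 0.04 ± 0.14. Atp5f1a, the alpha subunit, differed by −0.09 ± 0.15, and its interval ran from −0.44 to 0.27. The central stalk subunits Atp5f1c, Atp5f1d and Atp5f1e differed by 0.22 ± 0.18, −0.05 ± 0.20 and −0.17 ± 0.22.

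The peripheral stalk, which holds the head still while the rotor turns, was uneven. Atp5pd had values of 9.73, 9.55 and 9.43 in Control and 9.42, 7.99 and 9.08 in NASH. NASH 2 was far below the others, and NASH 1 was just under Control 3. The difference was −0.74 ± 0.35, 1.67-fold lower in NASH, with a limma adjusted p of 0.618. Atp5pf had values of 8.76, 8.64 and 8.36 in Control and 8.48, 7.28 and 8.05 in NASH. With this probe set NASH 2 was again lowest, and the difference was −0.65 ± 0.31 (adjusted p = 0.618).

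Atp5pb was also lowest on NASH 2, with a smaller range. Its values were 9.57, 9.40 and 9.54 in Control and 9.41, 8.92 and 9.08 in NASH, a difference of −0.37 ± 0.18 (limma adjusted p = 0.618). Across the 6 arrays the used probe sets of the 3 genes correlated with each other at r = 0.99, 0.90 and 0.90. These are given as a description because the genes share the same hybridizations and scaling. Without NASH 2 the differences were −0.32 for Atp5pd, −0.32 for Atp5pf and −0.26 for Atp5pb. Atp5po, the stalk's OSCP subunit, did not share the pattern. It read 10.25, 9.79 and 10.61 in Control and 10.18, 10.44 and 10.12 in NASH, a difference of 0.03 ± 0.22 (−0.19 with its second probe set). A second Atp5pf probe set differed by −0.09 ± 0.37. It was lowest on Control 3 (6.84), with NASH 2 at 7.35 and NASH 3 at 7.48. With the Atp5pf probe sets averaged, the difference was −0.37 ± 0.32. The trio was singled out after its values were seen. NASH 2 is the array with brown fat and muscle transcripts. The hepatocyte markers F10, Otc, Ambp and Cps1 were lowest there too, while Fgb was highest and Serpina1 jointly highest there. The part of brown fat and muscle transcripts, or of hepatocyte transcripts, in the stalk values was not tested.

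Atp5if1, the inhibitor that stops the ATP synthase from running backwards, had a difference of 0.87 ± 0.33 (1.82-fold, limma adjusted p = 0.581). Its values were 5.98, 6.28 and 6.07 in Control and 7.47, 6.23 and 7.23 in NASH. NASH 1 and NASH 3 were high, and NASH 2 lay inside the Control range. Without NASH 2 the difference was 1.24, and without NASH 1 it was 0.62. The gene's other 2 tested probe sets went the other way, with −0.15 ± 0.25 and −0.34 ± 0.20, the latter wholly lower in NASH. All 3 are of a kind (ending _f_at) that can bind several similar transcripts, and they did not share a direction. With all Atp5if1 probe sets averaged, the difference was 0.01 ± 0.21.

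**Figure D4:**
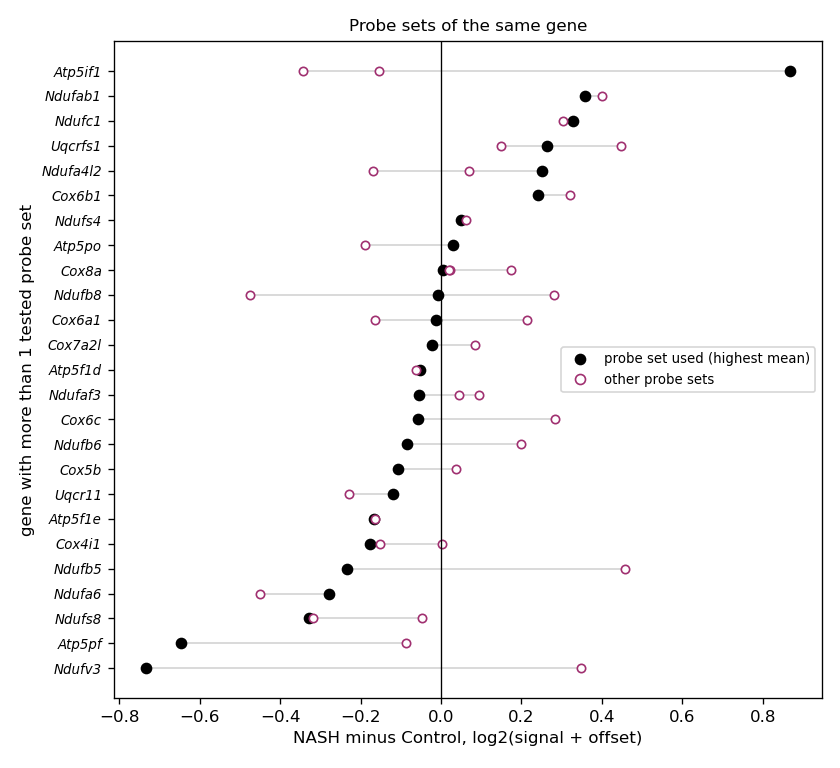
Differences NASH minus Control (log2) of all tested probe sets for the 25 genes with more than 1, with the probe set used in black and the others as open circles. Atp5if1 and Ndufv3 have probe sets far apart on both sides of 0, while those of Ndufc1, Ndufs4, Atp5f1d and Atp5f1e lie close together.

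Correlations between members from array to array took both signs. The median correlation over the 6 arrays was 0.27 for 448 pairs within a complex and 0.07 for 930 pairs across complexes, beside 0.00 for all pairs of probe sets tested. It was above 0.5 for 36.4% of pairs within a complex, 26.0% of pairs across complexes and 18.2% of all pairs. The median was 0.34 within complex I, where Control 2 was the lowest array for 15 of 27 genes and Control 3 the highest for 12. Over all members Control 2 was the lowest array for 19 of 53 and the highest for 3 (35.8% and 5.66%), beside 22.1% and 23.9% of all probe sets tested. Within complex III, with 6 pairs, the median correlation was 0.39. Within complex IV it was 0.06 and within complex V −0.16. All these values share the same 6 hybridizations and their scaling.

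Genes around the chain were looked up in lists from textbook knowledge, and 0 of their members were called. Over all probe sets tested, 0.133% were called, 47.1% had a higher mean in NASH, 6.56% lay wholly higher, and the median difference was −0.02. Of 14 genes for electron entry and carriers, 9 could be tested, 7 with a higher and 2 with a lower mean in NASH and a median of 0.26. Without NASH 2 the median was 0.12 with 6 higher, and without Control 3 it was 0.06. Ucp3 and Slc25a4, named after their values were seen and abundant in muscle, were high on NASH 2, at 5.70 against 3.16 to 4.63 and at 7.60 against 4.64 to 5.45 on the other arrays. The part of the muscle and brown fat transcripts in this list was not tested. Etfa and Etfdh, which carry electrons from fatty acid oxidation to the chain, lay wholly higher in NASH. Etfa read 8.83, 8.73 and 8.62 in Control and 9.06, 9.06 and 9.14 in NASH (difference 0.36 ± 0.16, limma adjusted p = 0.618), and its difference lay between 0.31 and 0.41 with any array left out. Etfdh differed by 0.62 ± 0.36, with Control 3 lowest at 7.23 and the lowest NASH value (8.70) nearly level with Control 1 (8.69). Without Control 3 its difference was 0.17.

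Of 14 citric acid cycle genes 5 were tested, 4 with a higher mean in NASH and a median of 0.26, which was 0.08 without NASH 2. Suclg1, a subunit of succinyl-CoA ligase, lay wholly higher (0.33 ± 0.16, limma adjusted p = 0.618), and citrate synthase Cs differed by 0.91 ± 0.50 with overlapping groups. Cs was close to the intensity filter, with a mean of 3.94 in Control and 4.85 in NASH. It read 2.86 on Control 3 and 5.48 on NASH 2, and its difference was 0.37 without the former and 0.59 without the latter. Of 19 assembly and maintenance genes 3 were measured. The chaperonin Hspd1 read 9.76, 9.52 and 9.99 in Control and 10.11, 10.23 and 10.25 in NASH, without overlap (0.44 ± 0.17, limma adjusted p = 0.581), and Phb2 differed by 0.14 ± 0.17. Of 13 regulators only Esrra had a probe set of its own (−0.32 ± 0.35, and −0.0013 without Control 3).

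The core subunits of complex IV are encoded in mitochondrial DNA. COX1, COX2 and COX3, the only 3 of 13 such genes with a probe set of their own, differed by −0.02 ± 0.18, −0.07 ± 0.11 and −0.04 ± 0.09, with limma adjusted p-values from 0.881 to 0.981. COX3 read 12.13, 12.12 and 12.05 in Control and 12.01, 12.08 and 12.09 in NASH. The used probe sets of the tested complex IV members, and those of COX1 to COX3, had measured differences under 0.5, with 95% intervals within 2-fold. This does not hold for the left-out forms Cox8b (1.81, interval −1.03 to 4.65) and Cox6a2 (interval up to 1.09). The interval of the second Cox6b1 probe set also reached 1.09.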

How the data were processed

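Liver RNA of 3 Control and 3 NASH samples was measured on 1 array each. Groups come from the sample titles, because the description of every sample repeats that of the first Control. The deposited values are linear MAS5 intensities, per the submitters' processing notes, with the version, scaling target and background settings not given in the sources used here. The instrument records hold other settings only (array type, tissue, wash and scan), per the file headers, and gave the wash record used as a block.

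Signals were quantile normalized (limma 3.58.1 in R 4.3.3) and set to log2 after adding 2.28, the 10th percentile, which understates changes of dim probe sets. After 59 array controls were removed, the 5244 of 8740 probe sets with a mean log2 above the 40th percentile (3.95) were tested. The platform annotation gave a single symbol to 7006 probe sets, several to 308 and none to 1426. All 54 member symbols were in the RefSeq gene table. Differences were tested in limma by lmFit and eBayes, its prior variance following intensity (residual degrees of freedom 4, prior 3.90), and p-values were adjusted by Benjamini-Hochberg over all 5244. The fit was tested on simulated data. Alternatives covered scaling, offset, filter, trend, array weights, blocks, averaging of probe sets, and leaving out arrays. Between-array precision is limited by 3 arrays per group.

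The members, gene lists and alternatives were chosen with earlier results of these data known. Named were called members, the 3 smallest p-values and the brightest probe set per complex, members with probe sets of opposite sign, the Sdh genes, Cyc1, Atp5if1, the Cox4, Cox6a and Cox7a forms, members below the filter, and up to 2 genes per list. Others named (the alpha, gamma, delta and epsilon subunits of the ATP synthase, Atp5pb, Ndufa4, Ndufa6, Ndufs1, Ndufs4, Ndufs7, Ndufv2, Ndufb11, Ndufc1, Uqcr11, Cox5a and Cox8a) were chosen after their values were seen.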

Additional observations from a re-analysis of the deposited data

How the results depend on the processing

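No member was called under any of the tested alternatives, and the lowest adjusted p of a member ran from 0.135 without both Control 2 and NASH 2 to 0.902 without NASH 3. The number of probe sets called, 7 in the fit reported, was 14 with no scaling, 3 with no intensity trend, 18 with array weights, 3 with the wash record as a block, 14 at a threshold of 0.1 and 15 without both Control 2 and NASH 2. With no filter it was 0 (limma, 635 at an unadjusted p under 0.05), and leaving out each array it ran from 0 (without Control 1, Control 3 or NASH 3, with 515, 418 and 265 at an unadjusted p under 0.05) to 17 (without NASH 2). The replicate block called 1 probe set. Arrays of the same number did not deviate together (r = 0.05, −0.02 and 0.07) and not every array went best with its own number, so the numbers are not taken as pairs.

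With no scaling the median was −0.16 for all members, −0.12 for complex I, −0.23 for IV and −0.23 for V. Without both Control 2 and NASH 2 it was −0.13 for complex I and −0.28 for V. Within the blank wash record (Control 2 and NASH 3) it was 0.18 for complex I, −0.16 for II, 0.025 for III and −0.19 for IV. The cause was not tested.

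Of the values of named members, 57 of 567 turned sign, and the cause was not tested. This share includes the filter, trend, threshold and block settings, which leave a member's difference unchanged and could not turn its sign. Of all 53 members tested, 24 turned sign with 1 array left out. With no scaling Atp5f1b was −0.13, Atp5po −0.17 and Ndufb9 −0.16. With trimmed mean scaling Atp5po was −0.0085 and Cox7a2l 0.012. With array weights Atp5po was −0.0397, Cox4i2 0.10, Ndufb9 −0.078 and Sdha −0.026. With the mean of a gene's probe sets Atp5po was −0.079, Cox6a1 0.013, Cox6c 0.11, Cox7a2l 0.031, Ndufa4l2 −0.078, Ndufaf3 0.028, Ndufb5 0.11 and Ndufb6 0.057. Without both Control 2 and NASH 2, Atp5f1b was −0.058, Atp5po −0.28, Cox4i2 0.075, Cox7a2l 0.031 and Ndufb9 −0.13. In the blank wash record Atp5f1b was −0.061, Cox6a1 0.10, Cox7a2l 0.0085, Ndufaf3 0.041, Ndufb8 0.33, Sdha −0.33 and Uqcrfs1 −0.21. In the filled one Atp5po was −0.12, Ndufb6 0.065 and Ndufb9 −0.061. Leaving out each array gave −0.039 to 0.11 for Atp5f1b, −0.18 to 0.23 for Atp5po, −0.27 to 0.059 for Cox4i2, −0.24 to 0.026 for Cox5b, −0.13 to 0.081 for Cox6a1, −0.18 to 0.084 for Cox6c, −0.12 to 0.050 for Cox7a2l, −0.12 to 0.025 for Ndufaf3, −0.31 to 0.092 for Ndufb6, −0.21 to 0.20 for Ndufb8, −0.087 to 0.093 for Ndufb9, −0.045 to 0.31 for Sdha and −0.0093 to 0.74 for Sdhaf2. Signals near the floor, such as those of Cox5a, Ndufs1 and Cs, limit what the arrays can show.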
